A study of Mus musculus with 99 samples.

Results

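The genes described here encode the secreted ligands Nodal and Gdf3, their coreceptor Tdgf1 (also called Cripto) and the extracellular antagonists Lefty1, Lefty2 and Cer1. They are 6 of the 55341 gene names in the count table, were chosen by the RNA counts of Parental cells, in which Tdgf1 and Lefty2 were known to fall with OHT, and were followed in all 16 RNA-seq libraries and in the deposited ChIP-seq peaks within 2.5 kb of each gene. Mouse embryonic stem cells (ESCs) carrying ROSA26::creERT2, a RING1A-/- background and RING1B fl/fl alleles (Parental) were compared with stable clones derived from them that express 2xFlag-HA tagged RING1B WT or RING1B I53S, a RING1B variant with a substitution in its ubiquitin ligase domain, from a pCAG vector. Each line received OHT (0.5 µM, 72 h), which activates the Cre recombinase that deletes the floxed alleles, or ethanol (−OHT), and there were 2 RNA libraries per group. Eed fl/fl ESCs with ROSA26:creERT2, in which the deleted gene encodes a core subunit of PRC2, were treated likewise with 2 libraries per group; the study lists more than 1 Eed fl/fl clone, and which clone each library came from is not given in the sources used here. All cells grew in serum with 2i and LIF, so each library comes from cultured ESC clones and not from an embryo. The ChIP-seq lists came from Parental, RING1B WT and RING1B I53S cells and from MTF2 KO clones of these lines, mostly with 1 library per antibody and condition, and OHT lasted 48 h in some JARID2 and MTF2 libraries.

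Nodal and its relatives belong to the TGF-beta superfamily. Nodal signals through activin receptors together with an EGF-CFC coreceptor such as Tdgf1, and the receptors phosphorylate SMAD2 and SMAD3, which act on DNA with SMAD4 and partners such as FOXH1. Lefty1 and Lefty2 are classical targets of the pathway and block it outside the cell, as Cer1 does, so that the pathway limits itself; in the early embryo it helps to keep the epiblast pluripotent and to pattern the axes. PRC1 places mono-ubiquitin on histone H2A (H2AK119ub1) through RING1A or RING1B, and PRC2 methylates histone H3 (H3K27me3); both marks are known for silencing developmental genes.

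Sequences are shown for the 3 members whose RNA differed most between lines. The 250 bases before the start of each gene are from GRCm38, the build of the peak lists, and capitals mark every match on either strand to AATNNACA, a FOXH1 motif, and to CAGAC, a SMAD motif. For Tdgf1 they are chr9:110946159-110946408 on the minus strand, for Lefty1 chr1:180934772-180935021 and for Lefty2 chr1:180892858-180893107, both on the plus strand.
Tdgf1: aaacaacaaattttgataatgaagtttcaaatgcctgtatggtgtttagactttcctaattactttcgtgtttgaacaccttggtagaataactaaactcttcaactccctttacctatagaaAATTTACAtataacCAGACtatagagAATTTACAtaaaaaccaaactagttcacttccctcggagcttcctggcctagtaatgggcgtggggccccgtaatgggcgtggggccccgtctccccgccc
Lefty1: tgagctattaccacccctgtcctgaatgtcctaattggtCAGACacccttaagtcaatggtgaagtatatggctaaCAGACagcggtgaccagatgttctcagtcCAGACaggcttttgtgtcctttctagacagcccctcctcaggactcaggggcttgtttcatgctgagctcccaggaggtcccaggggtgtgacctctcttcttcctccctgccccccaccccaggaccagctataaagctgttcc
Lefty2: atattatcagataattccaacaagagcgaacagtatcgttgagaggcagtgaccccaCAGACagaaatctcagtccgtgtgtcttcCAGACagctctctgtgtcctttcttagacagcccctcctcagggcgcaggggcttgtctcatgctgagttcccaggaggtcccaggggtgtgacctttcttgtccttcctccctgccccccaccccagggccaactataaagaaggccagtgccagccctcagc
The Tdgf1 window held 2 FOXH1 matches and 1 SMAD match. The Lefty1 window held 0 and 3, and the Lefty2 window 0 and 2. Among the same windows of 18132 tested genes, 8.38% held at least 1 FOXH1 match and 41.7% at least 1 SMAD match. A match is a match of letters only, and nothing was measured here on FOXH1 or SMAD binding.

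Over 18154 tested genes of the 12 libraries from Parental, RING1B WT and RING1B I53S cells (8140106 to 12743460 counted reads each) and 25170 genes of the 4 Eed fl/fl libraries (6957248 to 9443814 reads), a gene was called with edgeR's quasi-likelihood test at a Benjamini-Hochberg adjusted p (FDR) under 0.05 and a log2 fold change of 1.5 or more in either direction. The design calls the 2 libraries of each RNA group biological replicates without saying what separated them, so p-values measure the spread between those libraries. Rnf2, which encodes RING1B, averaged 228 ± 41.6 TMM-scaled counts per 1e6 reads (CPM; ± SD, n = 2) in untreated Parental cells and 155 ± 16.1 with OHT, on counts over the whole gene that include the transgene in the other lines. Eed averaged 214 ± 58.3 CPM without OHT and 55.4 ± 16.6 with it in Eed fl/fl cells. The 10 naive pluripotency genes of the marker list summed to 3890 to 5398 CPM in the 6 Parental, RING1B WT and RING1B I53S libraries without OHT. With OHT they summed to 3863 and 3914 in RING1B WT, to 2393 and 2568 in RING1B I53S and to 2148 and 2217 in Parental. In Eed fl/fl cells the sum was 3065 and 3966 without OHT and 2593 and 3151 with it.

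In RING1B I53S cells, Lefty1, Lefty2 and Tdgf1 fell with OHT to 8.99%, 10.1% and 17.3% of their level without it, and they were called lower where 1.04% of all tested genes were. Of the 6 members, 5 had enough counts to be tested, and none was called higher. In RING1B WT cells none of the 5 was called, where 0.0386% of all tested genes were called lower, although Lefty1 and Lefty2 were at 40.1% and 49.9% of their level without OHT. Both libraries with OHT lay below both without it for 5 of the 5 tested members in RING1B I53S (25.8% of all tested genes) and for 4 of 5, all but Nodal, in RING1B WT (24%). Between RING1B I53S and RING1B WT with OHT the same 3 genes were called lower, against 0.6% of all tested genes, and for 5 of 5 members both RING1B I53S libraries were below both RING1B WT libraries (24.7% of all genes). Without OHT the 2 lines gave no call among the members (0.0441% of all genes were called in either direction), and the widest difference was −0.43 ± 0.24 on the log2 scale, for Lefty1 (FDR 1). In RING1B I53S cells without OHT, Lefty1, Lefty2 and Gdf3 were at 74.34%, 81.55% and 82.03% of their RING1B WT level. Tdgf1 and Nodal were at 104.4% and 100.2%.

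**Figure D1:**
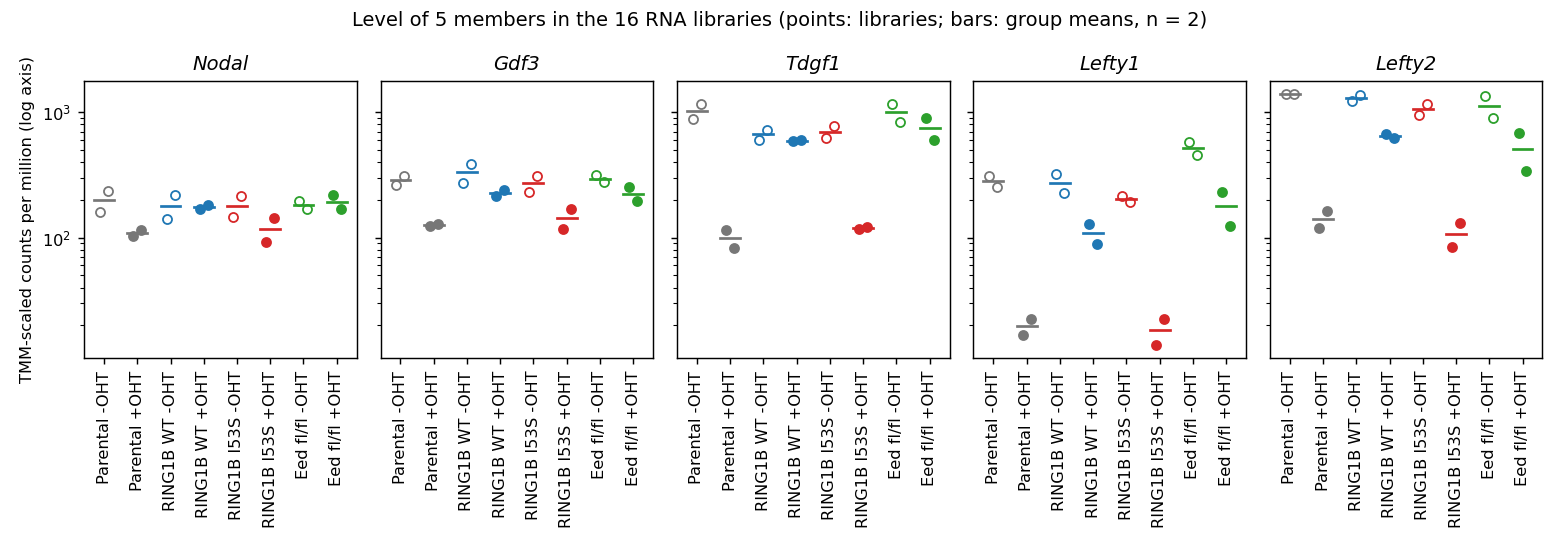
Level of Nodal, Gdf3, Tdgf1, Lefty1 and Lefty2 in each of the 16 RNA libraries, as CPM on a log axis, by line and treatment (points are libraries, bars are group means, n = 2). Tdgf1, Lefty1 and Lefty2 sit lowest in Parental and RING1B I53S cells with OHT, while both libraries of RING1B WT with OHT stay above them, with Tdgf1 at 589 and 595.

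The 2 ligands had the smallest differences. Nodal, the founding ligand of the pathway (chr10:61417972-61425338, GRCm38), was at 146 and 213 CPM in RING1B I53S cells without OHT and at 91.7 and 144 with it. The libraries with OHT lay just below those without it, and the log2 fold change was −0.61 ± 0.25 (SE) with an FDR of 0.077. Nodal in RING1B WT cells was at 140.4 and 218 CPM without OHT and at 170.2 and 180.45 with it, so that the groups overlapped (log2 fold change −0.03 ± 0.25, FDR 0.974). Parental cells held 161 and 235 CPM without OHT and 103 and 114 with it. In order of their means, 6 groups ran from Parental without OHT (198) to RING1B WT with OHT (175), each overlapping its neighbour. RING1B I53S with OHT (118) came next, apart from RING1B WT with OHT but overlapping RING1B WT without OHT (144 against 140.4 CPM), and Parental with OHT (109) came last.

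Gdf3, a ligand that works with Nodal and uses the same coreceptor (chr6:122605403-122610087), was at 232 and 310.3 CPM in RING1B I53S cells without OHT and at 118 and 169.5 with it. Both libraries with OHT were below both without it, at 52.99% of the mean, and the FDR was 0.00309, but the log2 fold change of −0.92 ± 0.21 did not reach the fold threshold. For RING1B WT cells the values were 274 and 387 CPM without OHT and 216 and 238 with it (log2 fold change −0.54 ± 0.21, FDR 0.198). Parental cells gave 263 and 310.2 CPM without OHT and 124 and 128 with it. The order of the group means again put RING1B I53S with OHT (144) and Parental with OHT (126) last, and the 6 groups before them overlapped each with the next. With OHT, RING1B I53S against RING1B WT gave a log2 fold change of −0.66 ± 0.21 for Gdf3 (FDR 0.0448) and −0.57 ± 0.25 for Nodal (FDR 0.134), neither of which was called.

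Tdgf1, the coreceptor (chr9:110939603-110946158, minus strand), was at 618 and 771 CPM in RING1B I53S cells without OHT and at 118 and 122 with it. The groups were far apart, with a log2 fold change of −2.53 ± 0.21 and an FDR of 1.14e-07. Tdgf1 in RING1B WT cells was at 604 and 727 CPM without OHT and at 589 and 595 with it, a log2 fold change of −0.17 with a 95% interval from −0.547 to 0.21 (FDR 0.731). With OHT, RING1B I53S cells were lower than RING1B WT cells by a log2 fold change of −2.30 ± 0.20 (FDR 7.66e-07). In Parental cells Tdgf1 ran from 880.2 and 1150.4 CPM without OHT to 116 and 82.0 with it, the lowest values among the 8 groups. The 5 groups with the highest means (Parental, Eed fl/fl, Eed fl/fl with OHT, RING1B I53S and RING1B WT, without OHT where not stated) each overlapped the next, and the remaining 3 did not overlap their neighbours.

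Lefty1 (chr1:180935022-180938400), an antagonist that binds Nodal and its coreceptor, was at 215 and 191 CPM in RING1B I53S cells without OHT and at 13.8 and 22.6 with it. Its log2 fold change of −3.47 ± 0.27 (FDR 5.28e-08) ranked 15th from the lowest of 18154 genes. RING1B WT cells held 319 and 227 CPM without OHT and 129 and 89.8 with it. These groups did not overlap either, and the FDR was 0.00609, but the log2 fold change of −1.32 ± 0.24 fell short of the fold threshold. With OHT, RING1B I53S against RING1B WT gave −2.58 ± 0.26 (FDR 4.79e-06). Parental cells held 308 and 254 CPM without OHT and 16.9 and 22.5 with it, overlapping the RING1B I53S libraries with OHT. Eed fl/fl without OHT had the highest mean (518) and overlapped no other group.

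Lefty2 (chr1:180893108-180899103), the second Lefty antagonist, lies 35.9 kb from Lefty1 and points the same way. In RING1B I53S cells it was at 956 and 1166 CPM without OHT and at 83.8 and 131 with it (log2 fold change −3.30 ± 0.22, FDR 9.17e-09). RING1B WT cells held 1232 and 1370.3 CPM without OHT and 675 and 623 with it. That shift, −1.004 ± 0.20 with an FDR of 0.0122, was also under the fold threshold. With OHT, RING1B I53S cells were lower than RING1B WT cells by −2.59 ± 0.22 (FDR 3.27e-07). Parental cells held 1404 and 1397 CPM without OHT and 118.5 and 162 with it, and in order of means Parental and RING1B I53S with OHT again came last and overlapped each other. The 2 Lefty genes are close copies: their 4 coding exons have equal lengths, 91.8% of the 1104 coding bases are identical, and 306 stretches of 50 bases occur in both, 17.9% of those in Lefty1 and 12% of those in Lefty2. The authors kept only uniquely aligned reads, so reads that fit both copies equally well were not counted. How this split reads between the copies was not tested.

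Cer1, an antagonist of Nodal secreted by visceral endoderm (chr4:82881751-82885148, minus strand), had 0 counts in 11 of the 12 libraries of the 3 lines and 1 count in RING1B I53S cells without OHT. Eed fl/fl libraries had 1 and 2 counts without OHT and 3 and 2 with it. A count of 0 allows a level of up to 3 counts, which corresponds to 0.232 to 0.374 CPM across libraries. Where the count was 0, a lower level could therefore have been missed. Cer1 was not tested, and no peak lay near it.

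**Figure D2:**
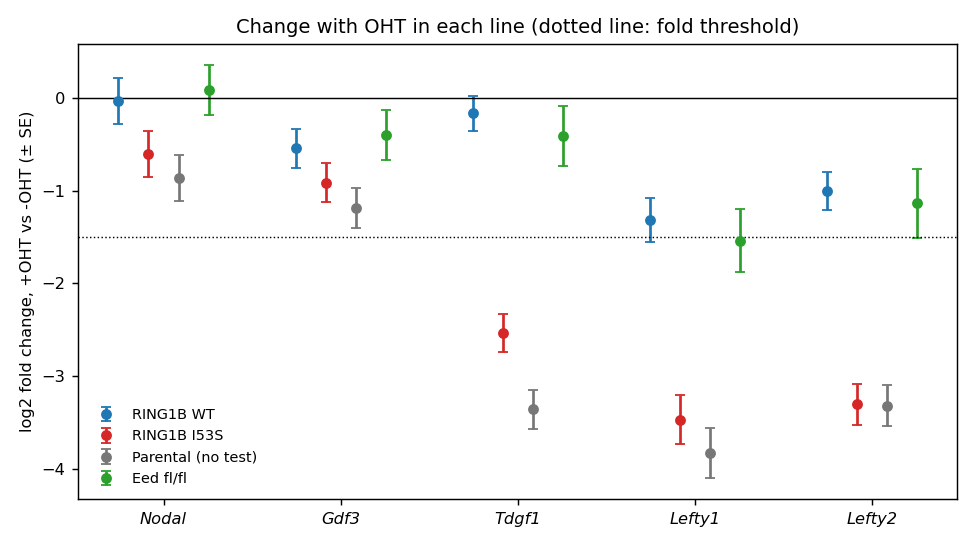
Log2 fold change with OHT (± SE from the edgeR fit, 2 libraries per group) of 5 members in each line, with the fold threshold of −1.5 as a dotted line. RING1B I53S and Parental cells, the latter drawn without a test, fall below the line for Tdgf1, Lefty1 and Lefty2, RING1B WT cells stay above it for every gene, and Eed fl/fl crosses it for Lefty1 at −1.54, which was not called.

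Whether OHT acted differently in the 2 transgenic lines was tested directly, as the log2 fold change with OHT in RING1B I53S minus that in RING1B WT. The difference was called for Tdgf1 (−2.37 ± 0.28, FDR 0.000132), Lefty2 (−2.30 ± 0.29, FDR 0.000346) and Lefty1 (−2.15 ± 0.34, FDR 0.00575), where 0.138% of all genes were called lower. For Lefty1 it rested on RING1B WT with OHT replicate 1: without that library it was −1.87 with an FDR of 0.0788. For Nodal (−0.58 ± 0.35, FDR 0.704) and Gdf3 (−0.37 ± 0.30, FDR 0.828) no difference was called, and the 95% intervals reached from −1.27 to 0.112 and from −0.957 to 0.211. These contrasts share their RING1B I53S and RING1B WT libraries with the ones above and are not separate evidence. In Parental cells, given as a description because they led to the choice of genes, the log2 fold changes with OHT were −3.83 ± 0.27 for Lefty1, −3.36 ± 0.21 for Tdgf1, −3.32 ± 0.22 for Lefty2, −1.19 ± 0.21 for Gdf3 and −0.86 ± 0.25 for Nodal. RING1B I53S against Parental cells, both with OHT, differed by between −0.38 (Lefty2) and 0.27 (Tdgf1) on the same scale.

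Levels of different genes were compared per kilobase of exon. Without OHT, RING1B WT cells held 498 ± 37.5 CPM per kb of Lefty2 and 254 ± 32.9 of Tdgf1, against 155 ± 37.0 of Lefty1, 136 ± 33.0 of Gdf3 and 85.6 ± 26.2 of Nodal. RING1B I53S cells without OHT had 406 ± 57.0 of Lefty2, 265 ± 41.5 of Tdgf1, 115 ± 9.51 of Lefty1, 112 ± 22.9 of Gdf3 and 85.8 ± 22.4 of Nodal. In both lines Lefty2 and Tdgf1 were above the ligands, and Lefty1 was within the spread of Gdf3. In RING1B WT cells with OHT Lefty2 (248 ± 14.03) and Tdgf1 (226 ± 1.62) stayed above Gdf3 (93.6 ± 6.55) and Nodal (83.7 ± 3.47), and Lefty1 was at 62.3 ± 15.9. In RING1B I53S cells with OHT Lefty2 and Tdgf1 were no longer above the ligands. There Gdf3 was at 59.3 ± 15.1 CPM per kb, Nodal at 56.2 ± 17.6, Tdgf1 at 45.7 ± 0.923, Lefty2 at 41.2 ± 12.9 and Lefty1 at 10.4 ± 3.54, and apart from Lefty1 these means lay within the spread of their libraries. In bulk RNA, fewer cells that express a gene and less RNA per cell cannot be told apart.

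In Eed fl/fl cells no member was called by edgeR, where 2 genes of 25170 (0.00795%) were called in all, both higher and none lower (0%), 1372 genes had an unadjusted p under 0.05 and DESeq2 called 24 higher and 13 lower. That count rested on single libraries: edgeR called 241 genes higher and 21 lower without −OHT replicate 2, and 9 to 27 higher and 4 to 17 lower when another library was left out. Lefty1 was at 583 and 452 CPM without OHT and at 232 and 124 with it. Both libraries with OHT were below both without it, as for Lefty2 and Gdf3 (3 of 5 members, and 15.5% of all genes), and the log2 fold change was −1.54 ± 0.34 with an unadjusted p of 0.000793 and an FDR of 0.294 in edgeR's quasi-likelihood test. DESeq2 called Lefty1 (−1.63, FDR 0.00385), and so did edgeR without Eed fl/fl −OHT replicate 2 (−1.76, FDR 0.0328) or without Eed fl/fl +OHT replicate 1 (−2.10, FDR 0.0163). Lefty2 was at 1344.5 and 899.5 CPM without OHT and at 682 and 339 with it, −1.14 ± 0.37 with an FDR of 0.762. Lefty1 and Lefty2 ranked 21st and 95th from the lowest of 25170 genes. For Tdgf1 the 4 libraries overlapped, at 1161 and 832 CPM without OHT and at 903 and 595 with it (−0.41 ± 0.32, FDR 0.848). Gdf3 was at 313 and 276 CPM without OHT and at 251 and 194 with it (−0.40 ± 0.27, FDR 0.833). Nodal was at 195 and 169 without OHT and at 219 and 168 with it (0.09 ± 0.27, FDR 0.963).

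Of 34 other genes of the pathway, 32 were tested in the 3 lines. In RING1B I53S cells with OHT 9 were called higher, where 12.8% of all tested genes were, and none lower; the median log2 fold change of the list was 0.385, against 0.0141 over all genes. Most of those called were targets of the pathway, 7 of 9 (Lhx1, Mixl1, Foxa2, T, Fgf8, Sox17 and Gsc, transcription factors and a growth factor of mesoderm and endoderm). The others were Inhbb, which encodes a subunit of activin B, and the receptor Acvr1c, 1 of 4 receptors. None of the 4 signal transducers (Smad2, Smad3, Smad4, Foxh1), the 2 proprotein convertases or the 10 intracellular inhibitors was called, nor were the coreceptor Cfc1 and the secreted inhibitor Fst. In RING1B WT cells with OHT no gene of the list was called in either direction, where 1.34% of all genes were called higher. That share rested on single libraries, as its 244 genes became 21 when replicate 2 of the −OHT group was left out and 28 when that of the +OHT group was. The list median was 0.0717 there, with 0.0219 over all genes, and the median of the 9 targets was 1.44, with 2.91 in RING1B I53S. In RING1B I53S cells without OHT Foxa2 had no counts and Lhx1 few, so the size of these target medians is uncertain. Genes that low could pass the count filter through the groups where they were high. Between RING1B I53S and RING1B WT with OHT 5 were called higher (6.02% of all genes) and none lower, with a list median of 0.387 against 0.0359. No gene of the list was called for the difference in OHT effect (0.347% of all genes were called in either direction) or in Eed fl/fl cells, where 30 were tested.

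The called targets were at low levels. Lhx1, a transcription factor of the organizer, had 0 to 0.288 CPM in RING1B I53S cells without OHT and 4.65 and 4.91 with it (FDR 5.73e-05), with 3 counts in all without OHT, so no fold is given. Mixl1, a homeobox factor of the primitive streak, rose from 0.767 and 1.70 CPM to 7.42 and 8.52 (log2 fold change 2.65 ± 0.42, FDR 0.000121). Inhbb rose from 0.464 and 0.576 CPM to 4.31 and 4.51 (3.07 ± 0.63, FDR 0.00118). With OHT, RING1B I53S cells exceeded RING1B WT cells in Mixl1 (2.16 ± 0.42, FDR 0.00228), Lhx1 (3.21 ± 0.63, FDR 0.00257) and Inhbb (1.95 ± 0.59, FDR 0.0334). Of the 9 targets 4 were called higher in RING1B I53S against RING1B WT with OHT, and 0 for the difference in OHT effect. Lefty1 and Lefty2, which are targets too, were called lower in the same comparisons. Several of these genes also mark cell types, and the counts that follow stand beside 12.8% of all genes called higher and 1.04% called lower. Of 7 primitive endoderm markers 7 were called higher in RING1B I53S with OHT (Pdgfra, Gata6 and Sox7 with the lowest FDR), and their summed level ran from 4.61 and 4.71 CPM without OHT to 39.6 and 41.2 with it. In RING1B WT cells with OHT that sum was 9.26 and 13.3. Of 6 mesendoderm markers 4 were called higher, of 10 naive pluripotency genes 2 were called lower (Zfp42 and Klf2), of 6 primed markers 3 were called higher (Fgf5, Pou3f1 and Sox3), and of 7 trophoblast markers 4 of 6 tested were (Gata3, Hand1 and Krt18 first). In RING1B WT with OHT 2 trophoblast markers (Gata3 and Hand1) were called higher and no other marker of these lists was called. Both neuroectoderm markers tested, of 4, were called higher (Nes and Pax6), and so was 1 fibroblast marker (Col1a2) of 2 tested and 6 in the list, with Dcn and Lum at 0. The part of these shifts in the members' values was not tested.

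**Figure D3:**
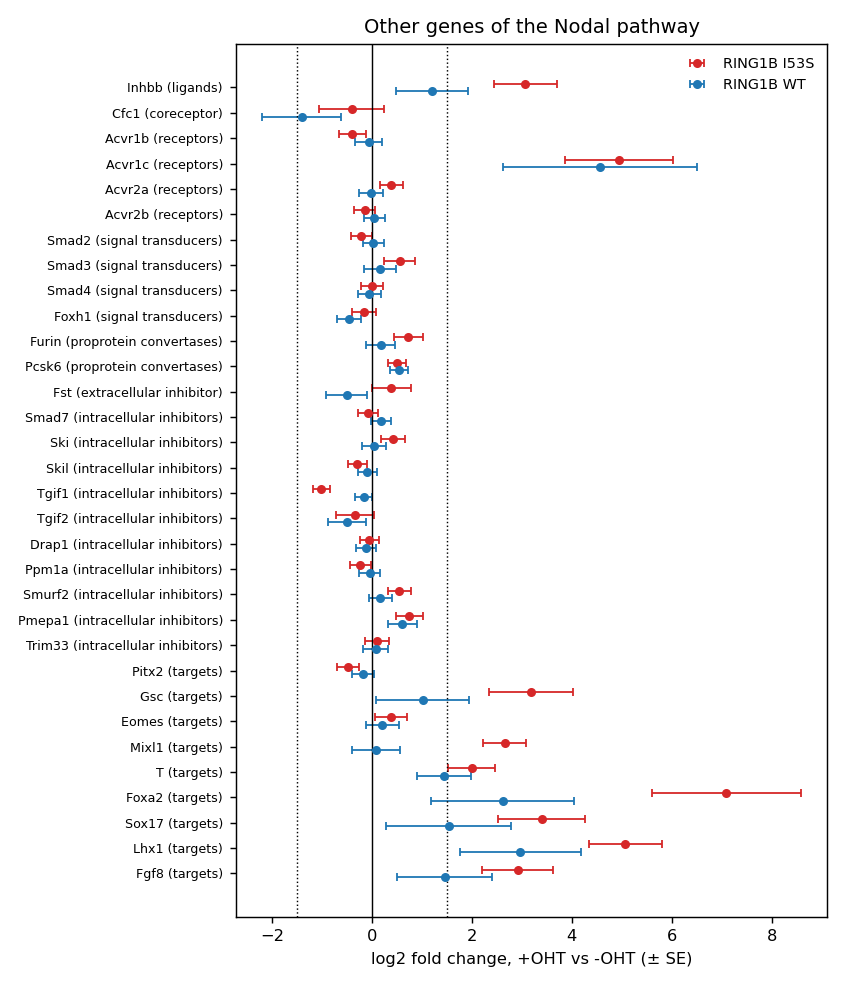
Log2 fold change with OHT (± SE, 2 libraries per group) of the tested other genes of the pathway, by role, in RING1B I53S and RING1B WT cells, with the fold threshold of 1.5 in either direction as dotted lines. The 7 called targets lie to the right in RING1B I53S, while signal transducers and intracellular inhibitors lie near 0 in both lines; values of Foxa2, Lhx1 and Acvr1c rest on groups with few or no counts.

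The genes next to the members were followed to see whether they moved too. Of the nearest tested gene on each side, only Lrrc2, a leucine-rich repeat gene that starts 5386 bp from Tdgf1 and is read from the opposite strand, was called in the comparisons tested among RING1B I53S, RING1B WT and Eed fl/fl cells. Lrrc2 was at 32.6 and 44.4 CPM in RING1B I53S cells without OHT and at 12.4 and 11.02 with it (log2 fold change −1.71 ± 0.24, FDR 3.36e-05). RING1B WT cells had 39.8 and 48.2 CPM without OHT and 37.2 and 36.0 with it (log2 fold change −0.26 ± 0.23, FDR 0.63). With OHT the lines differed by −1.64 ± 0.24 (FDR 0.000267), and the difference in OHT effect, −1.45 ± 0.33, had an FDR of 0.0594. Parental cells held 46.3 and 56.4 CPM without OHT and 8.28 and 12.5 with it. Dppa3, a naive pluripotency gene next to Gdf3, gave 0.96 ± 0.18 in RING1B I53S (FDR 0.000589), under the fold threshold, and 1.57 ± 0.18 in Parental cells, given with no test. Als2cl on the other side of Tdgf1 gave 0.11 ± 0.28 in RING1B I53S (FDR 0.812), and Tmem63a next to Lefty1 gave 0.06 ± 0.25 (FDR 0.891).

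Genes with the most similar course were ranked by the root mean square difference over the 6 group means of log2 CPM in the 3 lines, each gene centred on its own mean. Lefty1 and Lefty2 were each other's closest gene, at 0.186 on the log2 scale. Next to Lefty2 came Manba, a lysosomal mannosidase (0.2), and Slc7a3, a transporter of basic amino acids (0.252). Lefty1 was followed by the lincRNA Gm14221 (0.248) and Slc7a3 (0.293). Closest to Tdgf1 were the lincRNA Gm48395 (0.154), Tdgf1-ps1 (0.173) and Manba (0.22). Tdgf1-ps1 is a processed pseudogene of Tdgf1 on chromosome 16, and 50.9% of its 50-base stretches also occur in Tdgf1, so its counts are uncertain. It averaged 58.2 ± 11.5 CPM in RING1B I53S cells without OHT and 7.36 ± 1.76 with it, yet 4.39 ± 1.47 in Eed fl/fl cells without OHT, where Tdgf1 itself was at 997 ± 233. Nodal was closest to Eef1e1, Sirt1 and Mrps5 (0.0316 to 0.0368) and Gdf3 to Tlcd1, Hnrnpm and Bcat2 (0.036 to 0.0451), as many genes moved that little.

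Peaks were searched in 74 deposited lists, of which 69 are of 12 antibodies in groups with a stated line and treatment, 4 are of inputs and 1 is a RYBP list left out of the groups. Only the Lefty genes had any within 2.5 kb: Lefty1 had 14 peaks in 12 lists of 6 antibodies, and Lefty2 had 3 peaks in 3 lists, all of PCGF6, a subunit of variant PRC1. Nodal, Gdf3, Tdgf1 and Cer1 had none in any list, and the 4 input lists had none near a member. None of the 16 lists of RING1B I53S cells with OHT held a peak near a member, against 7 of 16 lists of RING1B WT cells with OHT, 5 of 12 of Parental cells without OHT and 1 of 13 with it. Without OHT, 0 of 2 lists of RING1B I53S cells held one, although they had peaks near 23.4% and 40.5% of genes, and 1 of 2 lists of RING1B WT cells did. The lists differ in size, so this is given beside the share of all tested genes with a peak within the same distance. That share ran from 0.0716% to 36.7% over the lists of RING1B I53S with OHT and from 5.25% to 37.4% in RING1B WT with OHT. In Parental cells it ran from 4.87% to 62.6% without OHT and from 0.0275% to 35.3% with it. For JARID2 at 72 h it was 4.41% and 1.69% in RING1B I53S, against 21.9% and 21.6% in RING1B WT.

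**Figure D4:**
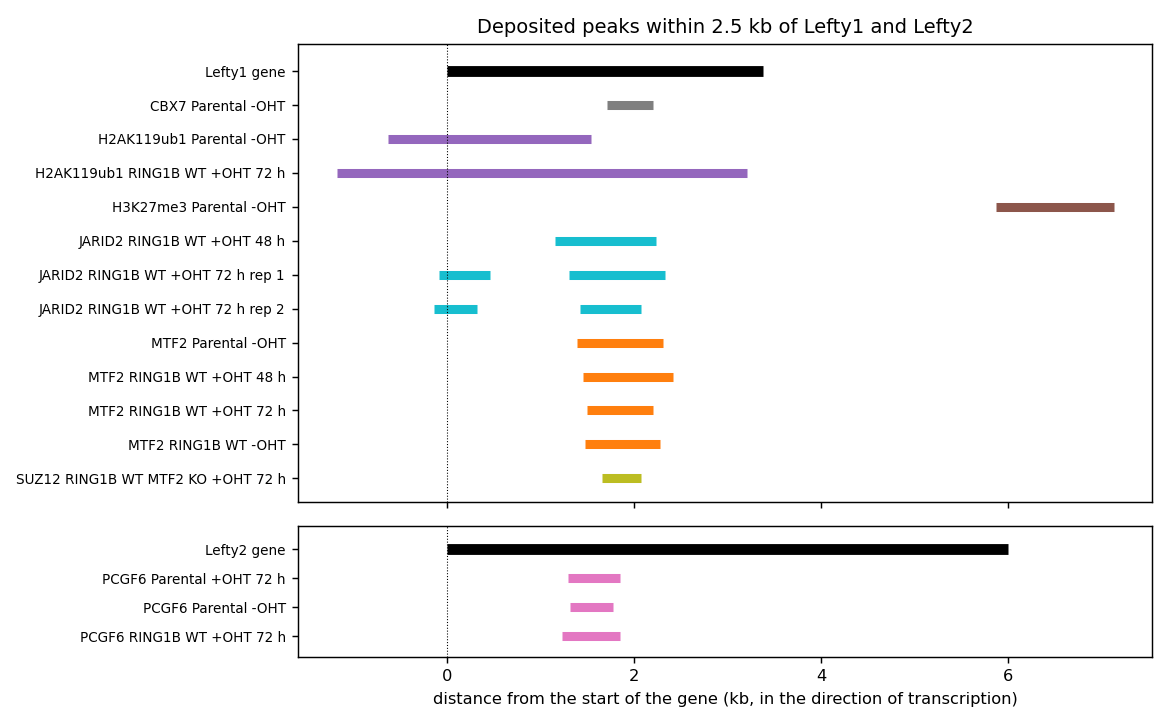
Peaks within 2.5 kb of Lefty1 (upper panel) and Lefty2 (lower panel), each drawn from its first to its last base as distance in kb from the start of the gene, with the gene in black and 1 line per ChIP-seq list. At Lefty1 the MTF2, CBX7 and SUZ12 peaks and the larger JARID2 peaks gather between 1.16 and 2.42 kb inside the gene. The H2AK119ub1 peaks and smaller JARID2 peaks cover the start, and an H3K27me3 peak lies 5867 to 7125 bp after it. At Lefty2 only PCGF6 peaks appear.

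H2AK119ub1 covered the start of Lefty1. In Parental cells without OHT the peak ran from −626 to 1545 bp relative to the start, with a score (−log10 p from MACS2) of 25, above 84.4% of the peaks in its list. In RING1B WT cells with OHT it ran from −1170 to 3208 bp, with a score of 36.4, above 89.9% of its list. There was no H2AK119ub1 peak within 2.5 kb of Lefty1 in Parental or RING1B I53S cells with OHT, where the nearest was 273 kb away in both. The share of tested genes with an H2AK119ub1 peak was 29.6% in Parental without OHT, 35.4% in RING1B WT with OHT, 26.5% in Parental with OHT and 15.1% in RING1B I53S with OHT. These shares count called peaks and do not measure the amount of the mark. The paper scaled its signal to added Drosophila chromatin and reported complete loss at PRC1 targets in RING1B I53S cells with OHT. By western blot it described a similar global loss in Parental cells with OHT. The peak lists do not carry that scaling. Parental and RING1B I53S cells with OHT, which lacked the Lefty1 peak, were also the groups with the lowest Lefty1 RNA. Lefty2 and Tdgf1 RNA was lowest in these groups too, and neither gene had an H2AK119ub1 peak within 2.5 kb in any list. In RING1B WT with OHT, an H2AK119ub1 peak lay 6.4 kb past the end of Lefty2 (14.4). A link between peak and RNA was not tested. Of the 188 genes called lower in RING1B I53S with OHT, 24 (12.8%) had an H2AK119ub1 peak in Parental cells without OHT, against 1624 of the 2323 called higher (69.9%). A missing peak says that no peak passed the authors' threshold, and the lists hold no signal below it.

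Inside Lefty1, subunits and partners of PRC2 shared a narrower stretch. MTF2, a Polycomb-like subunit that binds DNA rich in CpG, had a peak from 1397 to 2316 bp after the start in Parental cells without OHT (score 17.8), and in RING1B WT cells without OHT (13.9), with OHT for 48 h (16.1) and in 1 of 2 libraries with OHT for 72 h (13.1). Peaks of MTF2 were common, within 2.5 kb of 62.6%, 45.1% and 37.4% of tested genes in the first 3 of these conditions and of 33.8% and 30.4% in the 2 libraries at 72 h. JARID2, an accessory subunit, had a peak there in RING1B WT cells with OHT for 48 h (12.4) and in both libraries at 72 h (16.6 and 11.9), and these last 2 also had a small peak over the start (11.1 and 10.5). JARID2 peaks lay near 21.4%, 21.9% and 21.6% of genes in these lists. CBX7, the chromodomain subunit of canonical PRC1, reached 10.7 in Parental cells without OHT (20.6% of genes had a peak). SUZ12, a core subunit of PRC2, reached 11.9 in RING1B WT MTF2 KO cells with OHT (14.9% of genes) and had no peak there in the lists of cells with MTF2. A score of at least 20 removed all of these and left the 2 H2AK119ub1 peaks. The H3K27me3 peak nearest to Lefty1 in Parental cells without OHT (13.8) began 2489 bp past the end of the gene, at the edge of the window, in a list with peaks near 32.5% of genes.

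At Lefty2 the PCGF6 peak was present in Parental cells without OHT (score 13.3), in Parental cells with OHT (18.4) and in RING1B WT cells with OHT (12.4). RING1B I53S cells with OHT had none. The share of tested genes with a PCGF6 peak was 35.7%, 25.5% and 32.8% in the first 3 and 13.1% in RING1B I53S with OHT. Lefty2 RNA with OHT was at 118.5 and 162 CPM in Parental, 83.8 and 131 in RING1B I53S and 675 and 623 in RING1B WT. Each condition had 1 PCGF6 list, and a link between this peak and Lefty2 RNA was not tested. No H2AK119ub1 or RING1B peak lay within 2.5 kb of Lefty2 in any list.

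Outside the window, 26 peaks in 26 lists of 8 antibodies lay between 2.52 and 4.58 kb past the end of Lefty1, over a start site of Tmem63a. RING1B itself peaked there, 2.89 kb from Lefty1 in Parental cells without OHT (19.6) and 3.24 kb in RING1B WT cells with OHT (12.2). In RING1B I53S cells with OHT the nearest RING1B peak was 514 kb from Lefty1. RING1B peaks lay near 21.6%, 16.6% and 5.03% of tested genes in these 3 lists. MTF2 peaked over that Tmem63a start with OHT for 48 h in RING1B I53S (27.3) and Parental cells (24.3). At 72 h it did so in Parental cells (12.1), while in RING1B I53S the nearest MTF2 peaks were 212 and 137 kb from Lefty1. The coreceptor gene Tdgf1 had no nearby peak of H2AK119ub1, RING1B or H3K27me3. Its nearest H3K27me3 peak was 57.4 kb away in Parental cells without OHT, and 61 kb in RING1B WT and 33.5 kb in RING1B I53S cells with OHT. The nearest H2AK119ub1 peak to Tdgf1 was 57.4 kb away in Parental cells without OHT and 59.2 kb in RING1B WT with OHT, and the nearest RING1B peak 59.1 and 195 kb. For Nodal the nearest H2AK119ub1 peaks were 42.7 and 31 kb away and for Cer1 343 and 342 kb. For Lefty2 they were 21.5 and 6.4 kb away. Between the Lefty genes, H2AK119ub1 also peaked 6.73 kb upstream of Lefty1 in Parental cells without OHT (28.4). In RING1B WT with OHT it peaked 6.17 kb (24.7) and 9.67 kb (35.3) upstream of Lefty1. Gdf3 had H2AK119ub1 peaks 6.1 kb (12.1) and 8.61 kb (16.3) upstream in Parental cells without OHT. In RING1B WT with OHT it had a peak 8.53 kb upstream (18.2), over the farther of these sites. That site was nearer to the start of Dppa3 than to Gdf3.

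**Figure D5:**
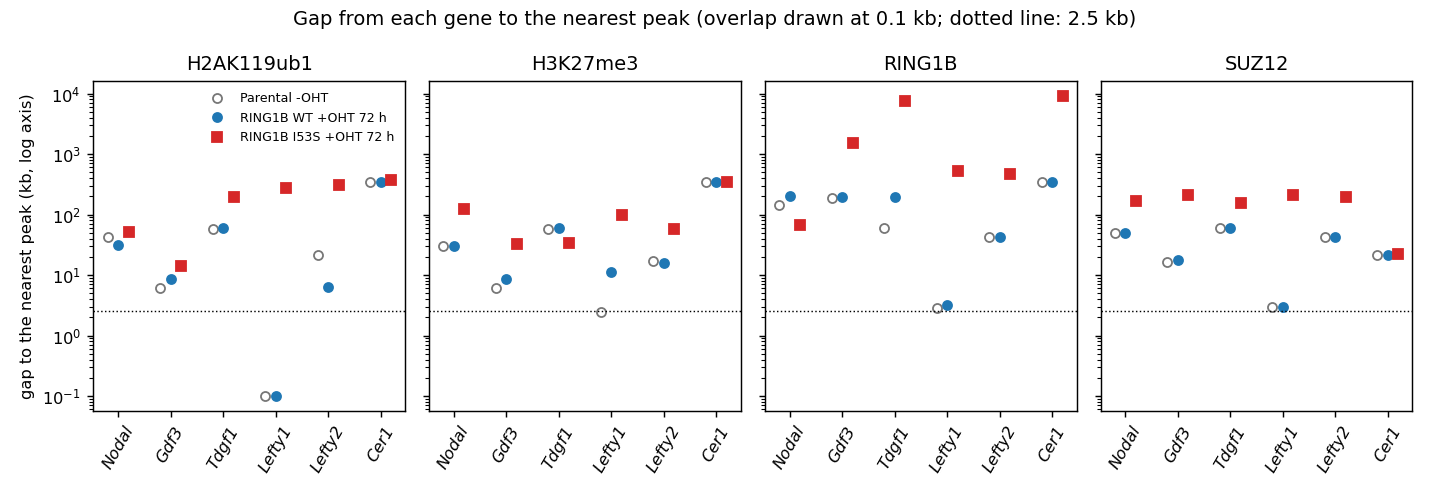
Gap in kb, on a log axis, from each member to the nearest peak of H2AK119ub1, H3K27me3, RING1B and SUZ12 in Parental −OHT, RING1B WT +OHT and RING1B I53S +OHT cells, 1 list each, with overlap drawn at 0.1 kb. Only Lefty1 has peaks at or near the dotted line of 2.5 kb, and Tdgf1 lies 57.4 kb or more from any H2AK119ub1 peak of these lists.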

How the data were processed

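RNA-seq counts and ChIP-seq peak lists from mouse ESCs were used. The counts are raw reads per gene name, which the authors made from SMART-seq2 poly-A libraries with STAR 2.7 without multimapping reads, samblaster and featureCounts without strand on GENCODE M21 (GRCm38). Without strand, reads of overlapping antisense genes cannot be told apart. The peak scores are −log10 p-values that the authors obtained with MACS2 2.1.1 with a score of at least 10, against the E14 input, per library, on unique Bowtie 1.2.2 alignments to mm10, and deposited. They are not scaled for depth, and depth per ChIP library is not analysed here. The authors' deposited tables of normalized counts and of their own comparisons (fold changes and p-values) were not used.

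Counts were scaled by TMM, filtered with filterByExpr and tested with edgeR 4.0.16 in R 4.3.3, 12 libraries in one fit and the 4 Eed fl/fl libraries in another (biological coefficient of variation 0.181 and 0.251). The code was tested on simulated data. Replicates differed by more than sampling noise. A gene name can cover several gene models (108 names did). Peaks and sequences were read in Python 3.11.15 and figures drawn with matplotlib 3.10.9. A ChIP library of RYBP whose title leaves its treatment unclear was left out of the groups. No adjustment was made over the members alone. The 95% intervals were set from the SE by the normal distribution, so with few libraries they are somewhat too narrow. Sequence under the peaks is not reported here.

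The members, lists and tests were chosen with earlier results of these data known. Named were the members, the targeted genes, up to 3 pathway genes per direction and comparison by FDR, the 3 genes most similar to each member, the nearest tested neighbours and up to 3 markers per list; other called members of short lists are named for completeness. Alternatives were DESeq2 1.42.0, RLE factors, other filters and thresholds, a replicate block, each library left out and other peak windows.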

Additional observations from a re-analysis of the deposited data

Results flagged for a closer look

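These 3 members are listed because their response to OHT differed between the RING1B I53S and RING1B WT lines by a test of the difference itself (edgeR's quasi-likelihood test, Benjamini-Hochberg adjusted over 18154 genes, 2 libraries per group). The difference was −2.37 on the log2 scale for Tdgf1, −2.30 for Lefty2 and −2.15 for Lefty1, in each case lower in RING1B I53S. The groups had too few libraries to look for single outlying libraries. The ChIP-seq list of the RYBP library with no assigned group held no peak near a member.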

How the results depend on the processing

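The calls of Lefty1, Lefty2 and Tdgf1 in RING1B I53S with OHT, against no OHT and against RING1B WT with OHT, held in 11 of 11 alternatives each, and in the difference of OHT effects all held in 15 of 15 except Lefty1 without RING1B WT +OHT replicate 1 (−1.87, FDR 0.0788). In RING1B WT with OHT 2 members (Lefty1 and Lefty2) were called with FDR alone or at a log2 fold change of 1, and leaving out 1 library gave 0 to 1 (Lefty1, without −OHT replicate 2 at −1.54 or +OHT replicate 1 at −1.61). In Eed fl/fl 1 member (Lefty1) was called by DESeq2 and with the replicate block, and 0 to 1 when 1 library was left out. The labels do not say what a replicate number shares, so no pairing was assumed. Deviations of same-numbered libraries correlated above 0.1 in 9 of 9 group pairs that share a line or treatment (0.117 to 0.627) and at 0.561 in Eed fl/fl, but in 2 of 6 other group pairs (lowest −0.0478), which is a hint from the data and not from the design. With the replicate block, 2393 genes were called higher and 213 lower in RING1B I53S, 63 and 33 for the difference of OHT effects, and 140 and 21 in Eed fl/fl, and no other member's call changed. DESeq2 called 91 and 30 for that difference and 6 and 9 between the lines without OHT. Leaving out 1 library gave 1564 to 2239 genes called higher and 133 to 333 lower in RING1B I53S (333 without +OHT replicate 1), and 321 to 911 and 80 to 144 between the lines with OHT (321 higher without RING1B WT +OHT replicate 1, 714 without replicate 2). For the difference of OHT effects it gave 2 to 47 and 8 to 27, with the lowest counts without RING1B WT +OHT replicate 1 (2 and 8), RING1B WT −OHT replicate 1 (7 and 10) and RING1B I53S −OHT replicate 2 (17 and 17).

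Values near 0 changed sign. Nodal in RING1B WT with OHT was 0.0083 with at least 10 counts per library, 0.0083 with the replicate block, 0.066 without TMM factors and −0.32 to 0.32 when 1 library was left out (−OHT replicate 2 or +OHT replicate 1 turned the sign, the latter to 0.0065). The fit without TMM factors was added after seeing the data and moved the median of all genes to 0.111 there, 0.174 in RING1B I53S and 0.28 in Eed fl/fl. Nodal in Eed fl/fl was −0.0062 under DESeq2 and RLE factors and −0.16 to 0.26 with 1 library left out. Between RING1B I53S and RING1B WT without OHT, leaving out 1 library gave −0.29 to 0.38 for Nodal, −0.11 to 0.22 for Tdgf1 and −0.51 to 0.0047 for Gdf3. Causes were not tested.

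Pairs of a member and a list with a peak rose within 10 kb to 5 for H2AK119ub1 (from 2), 4 for H3K27me3 (from 1), 2 for RING1B (from 0) and 3 for SUZ12 (from 1). A score of at least 20 left 0 for H3K27me3 and 0 for SUZ12, and windows around start sites or the gene body left 0 for H3K27me3.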
